A study of Mus musculus with 6 samples.

Results

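The baseline of the day-6 control liver was described from the 3 hSRY-OFF arrays, each hybridised with liver RNA of a male FVB (FVB/N in the methods) pup at postnatal day 6 (P6). A probe was taken as a member when its deposited detection p-value, which places its brightness among the beads that match no mouse sequence, was under 0.01 on all 3 arrays, and the members were ordered by their mean bead intensity. Of 25697 probes, 9817 (38.2%) were members, and they represented 7520 of 17914 genes (42.0%). The other 3 arrays of the series came from hSRY-ON pups of the same sex, strain and age, in which Cre recombination at the 1-cell stage had placed a human *SRY* transgene under the ubiquitous CAG promoter, and they serve here only for a short comparison. In the methods, hSRY-OFF stands for the state before recombination, in which *SRY* is silent and the same promoter drives a red fluorescent protein, whereas the control littermates of the wider study lacked the transgene altogether and carried either no transgene or the Cre driver *Ddx4-Cre* alone. The labels do not say which of these the 3 pups were, so whether they carried the silent transgene is not known here. For the hSRY-ON arrays the methods chose pups that did not carry *Ddx4-Cre* themselves, the recombinase having come from the oocyte. Per the methods each array of a group was a different mouse.

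Around birth the mouse liver changes its work. The fetal liver is the main site of blood formation, and in the days after birth red cell and granulocyte production moves to marrow and spleen while hepatocytes take over the metabolism of the adult organ. Hepatocytes secrete most proteins of the blood plasma, which carry lipids, iron and hormones, clot the blood and restrain proteases. A P6 liver is therefore a mixture of hepatocytes, the cells of the sinusoids, remaining blood-forming cells and the blood in its vessels. In such bulk RNA fewer cells of a type and less RNA per cell cannot be told apart. The methods do not mention removal of blood from the livers, so blood-forming cells and circulating blood cells cannot be told apart here either.

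The 3 hSRY-OFF arrays detected 10318, 10445 and 10560 probes, and 14587 probes were detected on none of them. An undetected probe has only an upper bound: the lowest intensity of a detected probe was 188 on replicate 1, 189.6 on replicate 2 and 164 on replicate 3, and the negative control level lay between 132 and 145. Pearson correlations between arrays over the members, on the log2 scale after background correction and quantile normalization, were 0.987 to 0.993. Replicate 3 stood apart from the other replicates. Its intensities were compared with the mean of replicates 1 and 2 before normalization, after subtraction of each array's negative control level. The median ratio was 0.727 for members at ranks 3001 to 9817, against 0.986 for the 10 brightest. The gap thus grew from bright to dim probes. The median coefficient of variation over the 3 arrays was 2.31% at ranks 1 to 10 and 13.1% at ranks 101 to 1000. Leaving out replicate 3 gave 10004 members, and 98 of the 100 brightest were kept.

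Member means spanned 181 to 46636 intensity units with a median of 508. Of the members, 251 exceeded 10000 units, 2928 exceeded 1000 and 2801 lay under 300. The slope of the order was shallow at the top, where the brightest member exceeded the member at rank 100 by 2.61-fold. After subtraction of the negative control level, the 10 brightest members held 3.07% ± 0.297 (SD, n = 3) of the summed intensity of all members, the 100 brightest 19.8% ± 1.28 and the 1000 brightest 63.6% ± 1.5. The order is one of probe brightness. It is not an order of RNA amount, since probes of the same gene often differed in brightness, as described at the end.

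**Figure D1:**
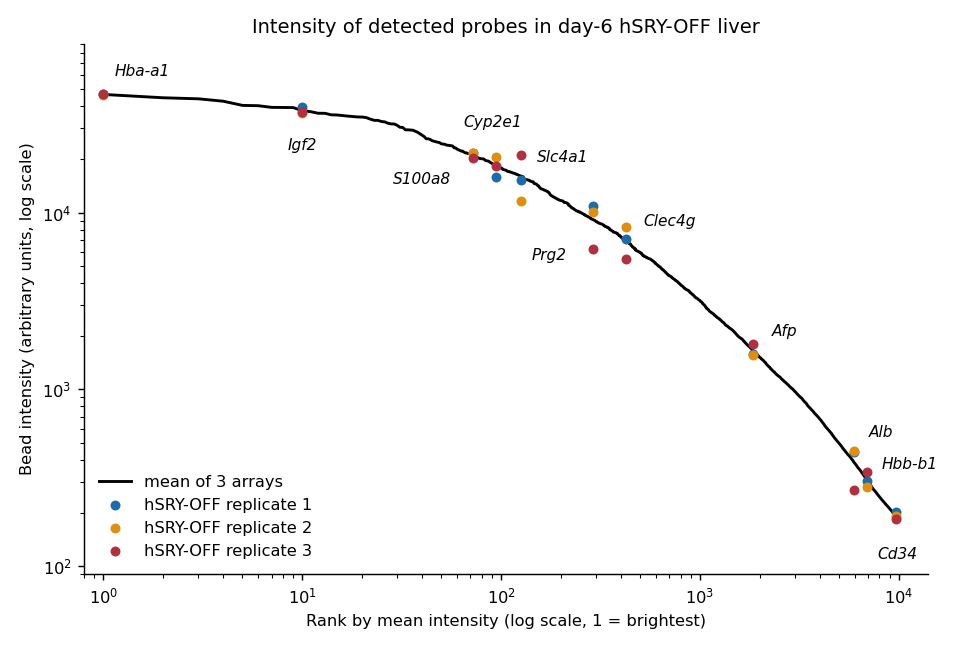
Mean bead intensity of the 9817 detected probes against their rank, both on log axes, with the values of 11 genes on each hSRY-OFF array as points. The curve ran from 46636 to 181 units, *Hba-a1* was at the top, and *Alb*, *Hbb-b1* and *Cd34* were near the lower end.

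The top of the order was led by an adult globin and by secreted proteins. *Hba-a1*, the alpha chain of adult haemoglobin, was brightest with 46604, 46504 and 46799 units on replicates 1, 2 and 3. *Serpina1b*, an antitrypsin of the blood, followed with 45258, 45632 and 43054 units, and *Ahsg*, the carrier protein fetuin-A, with 43863, 44203 and 44096. *Hba-a1* gave the highest intensity of each of the 3 arrays, and whether the scanner's ceiling limits these values was not tested. Next came *Hpx*, which binds free haem, with a mean of 42698 ± 643 (SD, n = 3 here and for the means below), *Gpx1*, a peroxide-removing enzyme, with 40433 ± 193, and *Trf*, the iron carrier transferrin, with 40266 ± 2724. *Kng1*, the precursor of kinins, had 39406 ± 237, and *Hp*, which binds free haemoglobin, had 39353 ± 3388. *Mt1*, a metal-binding metallothionein, had 39293 ± 2581, and *Igf2*, a growth factor of the fetus, had 37753 ± 1421. The SD ranges of neighbours in this order overlapped, except between *Hba-a1* and *Serpina1b*, between *Ahsg* and *Hpx* and between *Hpx* and *Gpx1*.

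Ranks 11 to 36, at 1 probe per gene, held the translation machinery, apolipoproteins and further plasma proteins. The ribosomal proteins *Rplp1* (37263 ± 1024), *Rpl41* (35752 ± 621) and *Rpl38* (31187 ± 2039) and the elongation factor *Eef1a1* (35388 ± 1429) belonged to the first kind. Among the lipid carriers *Apoa1* and *Apoa2*, which build high-density lipoprotein, had 35149.8 ± 970.2 and 34744 ± 1136, *Apoc1* had 34477 ± 1364 and *Apoe*, a ligand of lipoprotein receptors, had 33257 ± 2473. Clotting and protease control were represented by *Fga*, a chain of fibrinogen (36499 ± 950), *Vtn*, vitronectin (32599 ± 1646), *Serpina1d* (32782 ± 758), *Serpinf2*, the plasmin inhibitor (29412 ± 1849), and *Ambp*, the precursor of a protease inhibitor (33795 ± 1070). The rest were *Dbi*, an acyl-CoA binding protein (35673 ± 2235), *Atp5b*, a subunit of ATP synthase (33279 ± 1218), *Ubb*, a ubiquitin gene (31756 ± 2164), *Ubb-ps* (29406 ± 2457), *Fth1*, a ferritin chain (30349 ± 1066), *BC021614* (29317 ± 2224) and *H19*, an imprinted non-coding RNA of the fetus (29261 ± 3442). *Ubb* and *Ubb-ps* are near-copies, and a probe of either may take up RNA of the other.

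Plasma proteins and ribosomal proteins thinned out at different depths of the order. Probes of 7 plasma protein lists (albumin family, carriers, apolipoproteins, protease inhibitors, coagulation, complement, acute phase) made up 6 of the 10 brightest probes, 27.8% of ranks 11 to 100, 6.22% of ranks 101 to 1000 and 0.396% of ranks 3001 to 9817, against 0.599% of the whole table. Cytosolic ribosomal proteins were absent from the 10 brightest, made up 16.7% of ranks 11 to 100 and 2.89% of ranks 101 to 1000, against 0.319% of the table. The 100 brightest members belonged to 86 genes, of which 22 were in the plasma lists and 15 were ribosomal proteins. Genes of other work in the same tier were *Mat1a*, which makes S-adenosylmethionine, at rank 70 (21168, 22411 and 20866 units) and *Etfa*, an electron carrier of fatty acid oxidation, at rank 57 (23794, 25972 and 21767 units).

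**Figure D2:**
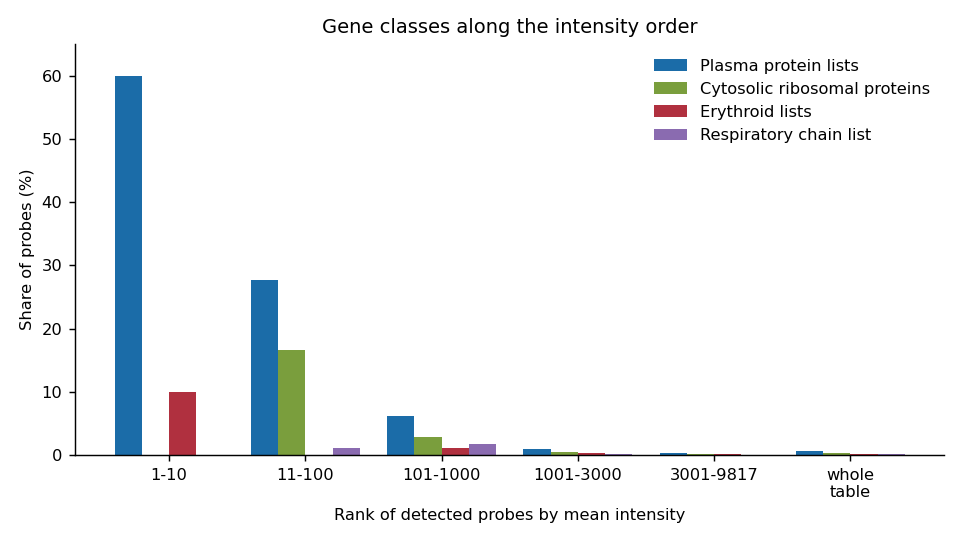
Share of probes (%) in 4 gene classes for 5 ranges of rank and for the whole table, each a single share with no error. Plasma protein lists held 6 of the 10 brightest and 0.396% of the last range, and ribosomal proteins peaked at 16.7% in ranks 11 to 100.

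Of the plasma protein genes with a probe, 97 of 109 (89.0%) were detected on all 3 arrays, against 42.0% of all genes. The lists, these and the later ones, were chosen with earlier results of these data known, so such shares are a description and not a test. The apolipoproteins were complete with 12 of 12, followed by coagulation and fibrinolysis with 21 of 22, plasma carriers with 19 of 21, protease inhibitors with 19 of 21 and complement with 17 of 19. *C3*, the central complement protein, was the brightest of its list at rank 111 (17027, 17782 and 16076 units), and *F10*, a clotting protease, stood at rank 123 (16019.6, 18122 and 14572 units). Among those without a detected probe were *Orm2*, *Mug2*, *Pzp* and *C1ra*, and *Igfbp1*, a carrier of insulin-like growth factors, was detected on 2 arrays with 172, 220.4 and 199 units. The median rank of the detected genes was 218 for apolipoproteins and 761 for complement.

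The acute phase list was split. *Crp* at rank 317 (8518, 9531 and 7899 units) and *Lcn2* at rank 355 (9188, 7088 and 7633 units) were among the 1000 brightest. *Saa3* was dim at 403, 430.3 and 289 units, *Saa1* was above the floor on 1 array with 199.7, 167 and 155 units, and *Saa2* on none. *Hamp*, the iron hormone hepcidin, was detected on 2 arrays with 206, 261 and 149 units. Without replicate 3 its probe would have counted as detected.

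Several genes that define the hepatocyte had dim or undetected probes. *Alb*, serum albumin, was measured by 1 probe at rank 5956 with 441, 448 and 269 units. *Afp*, the albumin of the fetus, lay above it at rank 1855 with 1576, 1564 and 1807 units, and *Afm*, afamin, below it at rank 6592 with 365, 340.3 and 291 units. *Gc*, the vitamin D carrier, gave 155, 159.8 and 129.6 units and was detected on no array. The same held for *Fgb*, the beta chain of fibrinogen (178, 176 and 152 units), although *Fga* stood at rank 12, and for *Ftl1*, the light chain of ferritin (145, 151 and 129 units), although *Fth1* stood at rank 32. Of 8 hepatocyte markers 7 were detected, and the one that was not was *Tat*, tyrosine aminotransferase. A probe's brightness depends on the probe, and the part of the probe in these low values was not tested.

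Promoters of the plasma protein genes carried letters that were rarer elsewhere. RefSeq sequence (GRCm38.p6) for the 250 bases before the start was at hand for 75 of the 97 detected plasma genes and 13447 of the 17914 genes of the table. GTTAAT, letters from the motif of the hepatocyte factor HNF1, was found on either strand in 22 (29.3%) of the plasma promoters and 6.80% of all. TGTTTGC, a forkhead motif, was found in 15 of 75 against 4.42%, and TTGCNNAA, a C/EBP motif, in 33.3% against 10.4%. The plasma promoters held a median of 3 CpG dinucleotides, against 12 over all genes and 18 over the ribosomal protein genes. A match describes the letters only and is not a measured binding site. Of the 75 genes, the 3 brightest with GTTAAT in this window and the albumin promoter, whose probe was dim, are shown 5′ to 3′ with the motif (GTTAAT, or ATTAAC on the other strand) in capitals.
*Serpina1b* (chr12:103738190-103738439, minus strand): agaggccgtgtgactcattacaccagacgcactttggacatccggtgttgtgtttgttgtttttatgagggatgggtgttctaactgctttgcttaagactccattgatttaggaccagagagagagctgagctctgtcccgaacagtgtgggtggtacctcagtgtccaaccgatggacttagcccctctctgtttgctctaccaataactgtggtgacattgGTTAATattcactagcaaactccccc
*Fga* (chr3:83025903-83026152, plus strand): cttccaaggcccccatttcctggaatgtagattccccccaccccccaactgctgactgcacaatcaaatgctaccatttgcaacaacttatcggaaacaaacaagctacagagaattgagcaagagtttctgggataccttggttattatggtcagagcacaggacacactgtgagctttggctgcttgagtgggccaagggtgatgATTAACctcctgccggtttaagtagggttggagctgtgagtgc
*Apoe* (chr7:19698399-19698648, minus strand): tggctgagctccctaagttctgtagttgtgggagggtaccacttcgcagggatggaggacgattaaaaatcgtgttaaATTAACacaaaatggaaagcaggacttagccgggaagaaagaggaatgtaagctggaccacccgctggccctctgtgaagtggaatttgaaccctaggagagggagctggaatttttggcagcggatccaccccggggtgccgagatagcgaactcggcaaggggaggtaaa
*Alb* (chr5:90460620-90460869, plus strand): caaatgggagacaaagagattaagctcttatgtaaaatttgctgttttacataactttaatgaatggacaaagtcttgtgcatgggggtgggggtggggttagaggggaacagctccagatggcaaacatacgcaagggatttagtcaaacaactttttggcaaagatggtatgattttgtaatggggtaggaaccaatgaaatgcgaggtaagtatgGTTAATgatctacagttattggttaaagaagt
The capitals began 26 bases before the start in *Serpina1b*, 43 in *Fga*, 172 in *Apoe* and 32 in *Alb*. The dim albumin probe and the bright *Serpina1b* probe thus belonged to genes with the same letters close to the start. TATAA within 60 bases before the start was found in 7 of 60 genes (11.7%) of the 100 brightest members, 3.97% of all member genes and 9.64% of genes detected on no array.

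Genes of blood and blood-forming cells were detected to unequal extents between lineages. Of the genes in 9 blood lists 71 of 122 (58.2%) were detected, against 42.0% of all genes. All 3 adult globins were detected, whereas the 3 embryonic globins with a probe, *Hbb-y*, *Hbb-bh1* and *Hba-x*, were detected on no array. Both beta chains of adult haemoglobin gave far dimmer probes than the alpha chain. *Hbb-b2* had 1038, 1113 and 1207 units at rank 2633, and *Hbb-b1* had 301, 279.9 and 339.9 units at rank 6912. The alpha and beta chains pair in the same protein, and the part of the probes in this gap was not tested.

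The red cell lineage was the fullest, with 25 of 32 genes detected (78.1%, against 42.0% of all genes). *Slc4a1*, the anion exchanger of the red cell membrane, was brightest of them at rank 126 with 15361, 11704 and 21196 units. *Alas2*, which starts haem synthesis in red cells, had 4945, 5103 and 5877 units, and *Klf1*, the factor that drives the adult globins, had 981, 622 and 1229.7. *Slc4a1* and *Klf1* were highest on replicate 3 and lowest on replicate 2, and *Alas2* was highest on replicate 3. *Tfrc*, the receptor for transferrin, had 7098, 6752 and 7260.3 units as deposited, also highest on replicate 3 and lowest on replicate 2. *Sptb*, *Epb42*, *Add2*, *Rhd* and *Bpgm* were among those detected on no array, and *Tspo2* on 1. *Eraf*, named after its values were seen and known as a chaperone of free alpha globin, stood at rank 95 with 17929.7, 15227 and 21467 units.

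The letters GATAAG, which GATA factors such as the red cell factor GATA1 bind, were found on either strand in 8 of 18 erythroid promoters (44.4%), against 6.98% of all promoters. Sequence was at hand for these 18 of the 28 detected erythroid and globin genes, and that of *Slc4a1* was not used here. Of the 18, the 3 brightest genes that hold the letters are shown with GATAAG, or CTTATC on the other strand, in capitals, and in *Hba-a1* also with TATAA near the start.
*Hba-a1* (chr11:32283422-32283671, plus strand): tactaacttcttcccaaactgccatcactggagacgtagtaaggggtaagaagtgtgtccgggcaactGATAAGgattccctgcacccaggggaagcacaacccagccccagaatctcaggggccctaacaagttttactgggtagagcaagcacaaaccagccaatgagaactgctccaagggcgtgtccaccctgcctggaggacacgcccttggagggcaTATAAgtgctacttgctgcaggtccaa
*Trim10* (chr17:36869324-36869573, plus strand): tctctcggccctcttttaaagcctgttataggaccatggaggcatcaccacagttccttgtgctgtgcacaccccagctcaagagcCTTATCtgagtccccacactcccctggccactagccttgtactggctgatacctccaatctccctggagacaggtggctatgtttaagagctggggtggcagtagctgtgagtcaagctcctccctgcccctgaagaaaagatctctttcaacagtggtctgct
*Kel* (chr6:41704326-41704575, minus strand): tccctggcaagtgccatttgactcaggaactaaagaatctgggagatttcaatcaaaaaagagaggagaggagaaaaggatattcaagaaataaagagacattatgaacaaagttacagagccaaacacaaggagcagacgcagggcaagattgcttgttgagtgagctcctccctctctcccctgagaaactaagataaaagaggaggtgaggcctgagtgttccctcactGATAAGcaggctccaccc
The GATAAG letters began 182 bases before the start in *Hba-a1*, 164 in *Trim10* and 18 in *Kel*, and TATAA in *Hba-a1* began at 27 bases. *Trim10* had 2208, 1649 and 2913 units at rank 1387 and *Kel*, a blood group antigen, had 997, 695 and 1319 at rank 2925. Both were highest on replicate 3 and lowest on replicate 2, as were *Slc4a1* and *Klf1*. *Hba-a1*, at the top of the range, varied with an SD of 150.0 units around 46636.

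Granulocyte genes were bright as well, with 17 of 23 detected (73.9%, against 42.0% of all genes). *S100a8*, a calcium-binding protein of neutrophils, had 21624, 21671 and 20465 units at rank 72, and its partner *S100a9* had 5686, 5162 and 5095 at rank 581. Granule proteins of the stages between promyelocyte and neutrophil followed, with *Ltf*, lactoferrin, at 10211, 8485 and 8709.5 units, *Ngp* at 8241, 7187 and 6915, and *Camp*, the precursor of an antibacterial peptide, at 5814, 5286 and 5415. *Mpo*, the peroxidase of early granules, had 2362, 1842 and 1533 units. The brightest member of the list, *Hp* at rank 8, is also made by hepatocytes. Undetected were *Mmp8*, *Csf3r*, *Itgam*, *Cxcr2*, *Anxa1* and *Padi4*.

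Eosinophil, basophil and mast cell genes gave a sharp contrast within 1 list of 10. *Prg2*, the eosinophil granule major basic protein, stood at rank 291 with 10926, 10139.8 and 6231 units, and *Ear2*, an eosinophil ribonuclease, at rank 914 with 4070.3, 3951 and 2318. The other 8 genes were not detected on all 3 arrays, *Epx* and *Cma1* on 1 each and *Cpa3*, *Mcpt8*, *Fcer1a*, *Tpsb2*, *Ms4a2* and *Il5ra* on none. Both detected genes were lowest on replicate 3.

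Megakaryocyte genes were detected for 9 of 13 and were dim. *Ppbp*, a platelet chemokine, led with 1326, 1504 and 1491 units at rank 2104, *Vwf* had 1129.6, 809 and 744, and *Itga2b*, the platelet integrin chain, had 343, 384 and 346. Of the stem and progenitor genes 6 of 15 were detected, a share near the 42.0% of all genes. *Lmo2* led them with 2121, 1806 and 2211 units, *Cd34* was at the lower edge with 202, 192 and 184, and *Flt3*, *Hoxa9*, *Runx1*, *Myb* and *Hlf* were undetected on all arrays. *Gata2* and *Slamf1* were detected on 1 array and *Mecom* on 2. Of the megakaryocyte list *Pf4*, platelet factor 4, and *Selp* were detected on 2 arrays and *Rab27b* on 1.

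Detected lymphocyte genes were dim. Of the B cell list 3 of 11 were detected, against 42.0% of all genes. They were *Cd79b*, a chain of the antigen receptor, with 502, 519 and 519 units, and *Vpreb3* with 386, 380.4 and 379. The third was the surrogate light chain gene *Vpreb1*, which marks B cell precursors, with 449, 343 and 341. Of the T and NK cell list 6 of 13 (46.2%) were detected, a share near that of all genes, among them all chains of the CD3 complex that were listed (*Cd3d* with 605, 569.8 and 455 units, *Cd3g* with 559, 536 and 318, *Cd3e* with 294, 269 and 217), while *Cd4* and *Cd8a* were undetected on all arrays. The CD3 genes were lowest on replicate 3. Of the B cell list *Ms4a1*, *Pax5*, *Ebf1*, *Rag1*, *Rag2*, *Blnk* and *Cd22* were detected on no array. With a detection p under 0.05 the B cell count became 6 of 11, and under 0.001 the T and NK cell count became 3 of 13.

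**Figure D3:**
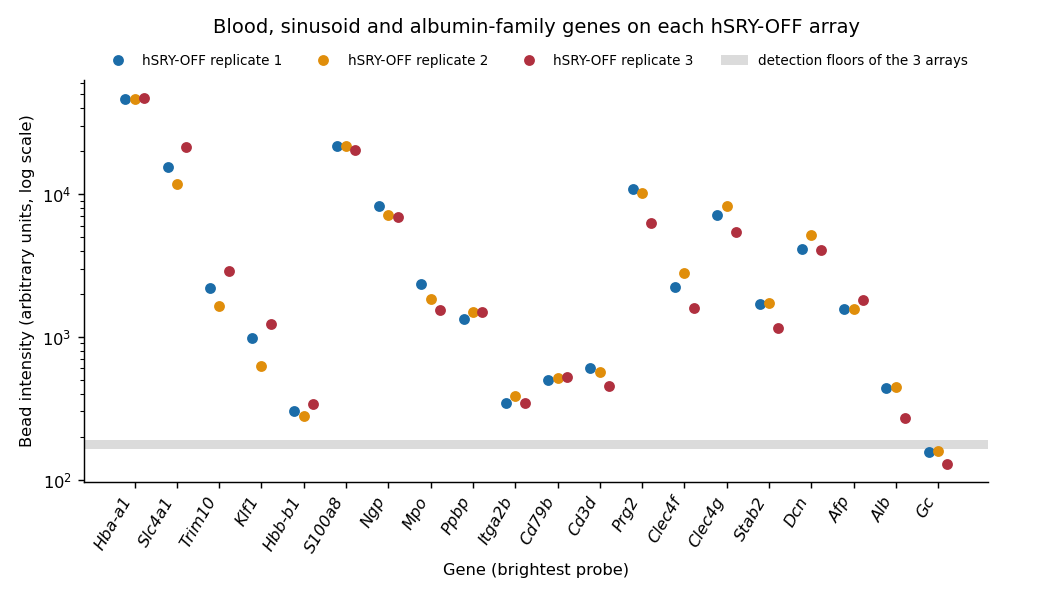
Bead intensity (log axis) of 20 genes on each of the 3 hSRY-OFF arrays, with the detection floors of 164 to 189.6 units as a grey band. *Slc4a1*, *Trim10* and *Klf1* were highest on replicate 3, *Clec4g* and *Clec4f* lowest there, and *Gc* lay under the band.

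The cells of the sinusoids were well represented. Kupffer cell and macrophage genes were detected for 16 of 19 (84.2%, against 42.0% of all genes). The brightest of them were *Lyz2*, lysozyme (9844, 8701 and 7651 units), *Fcna*, a ficolin (6055, 7050.4 and 4969), and *Vsig4*, a complement receptor (3774, 5062 and 2736). *Clec4f*, a lectin of Kupffer cells, had 2241, 2787 and 1584 units. *Fcna*, *Vsig4* and *Clec4f* were highest on replicate 2 and *Lyz2* on replicate 1, and the cell type behind *Lyz2* was not tested. *Cd5l* and *Cd163* were undetected. Endothelial genes were detected for 18 of 20, led by *Clec4g*, a lectin of the sinusoid, with 7108, 8269 and 5449 units, whereas *Kdr*, a receptor for vascular endothelial growth factor, was undetected and *Lyve1* was detected on 1 array.

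Stellate cell and matrix genes were detected for 16 of 20. *Sparc*, a matrix protein, led with 8493, 10135 and 6288 units, followed by *Reln*, reelin, with 7869.99, 9192 and 6492. Both were highest on replicate 2 and lowest on replicate 3. The fibrillar collagens were uneven: *Col1a1* was detected, *Col3a1* on 2 arrays and *Col1a2* on none. Biliary genes were detected for 4 of 11 (36.4%), a share near that of all genes. *Krt23* was brightest at 1776, 2223 and 1809 units and *Krt19*, the keratin of bile ducts, was undetected. With a detection p under 0.001 the biliary count became 2.

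Of the genes that mark other organs, 3 of 35 were detected, the smallest share of any list with more than 3 genes. They were *Cela1*, a pancreatic elastase, with 682, 789 and 615 units, *Krt10*, a keratin of skin, with 403, 409 and 304, and *Mbp*, of myelin, with 312, 231 and 256. All markers with a probe of skeletal muscle, lung, kidney, intestine and testis were undetected.

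**Figure D4:**
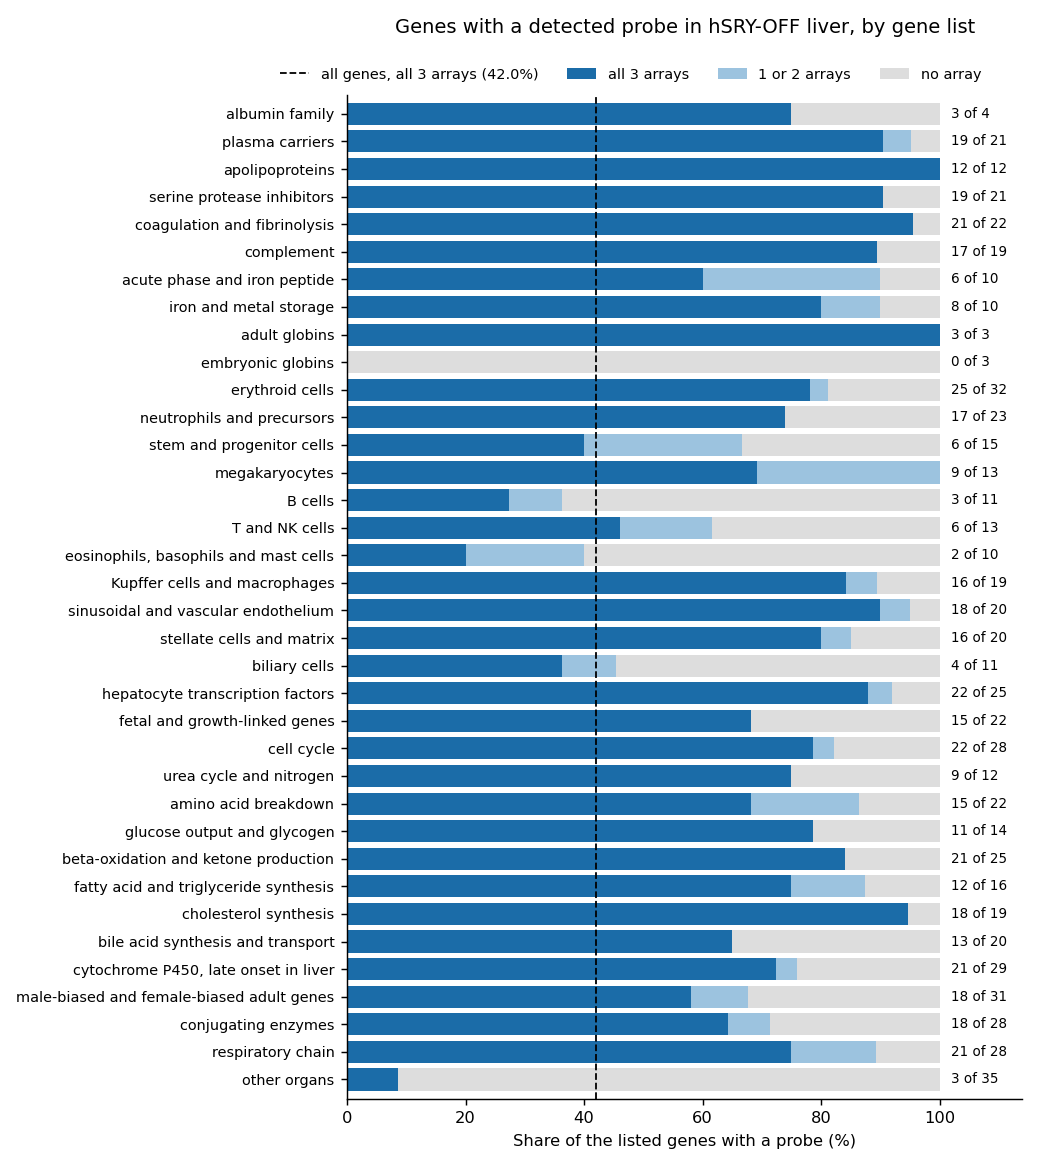
Share (%) of the genes with a probe in each of 36 gene lists that were detected on all 3 hSRY-OFF arrays (dark), on 1 or 2 (light) or on none (grey), with the count of genes at the right and the share of all genes, 42.0%, as a dashed line. Apolipoproteins were complete, and embryonic globins (0 of 3) and other organs (3 of 35) were at the low end.

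Fetal and growth-linked genes were detected for 15 of 22 (68.2%, against 42.0% of all genes). Behind *Igf2* and *H19* stood *Cdkn1c*, an imprinted brake on the cell cycle, with 11861, 10825 and 12795 units, *Grb10* with 7558, 8620.4 and 6275, *Gpc3*, glypican-3, with 4644, 4369 and 4030.4, and *Dlk1*, a marker of fetal hepatoblasts, with 2243, 3219 and 3291. *Lin28a*, *Igf2bp1* and *Hmga2*, which are known from earlier embryonic stages, were detected on no array, nor was *Cyp3a16*, a fetal form of cytochrome P450. Cell cycle genes were detected for 22 of 28 (78.6%). *Ccnd1*, cyclin D1, had 5942, 6638 and 4349.8 units, *Cdk1*, the mitotic kinase, had 2130.5, 1727 and 1355, and the replication helicase gene *Mcm4* had 3911, 3130.2 and 2903. *Ccna2*, *Ccnb2*, *Bub1*, *Ube2c* and *Stmn1* were undetected, and *Pcna* was detected on 1 array.

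Hepatocyte transcription factors were detected for 22 of 25 (88.0%, against 42.0% of all genes). *Foxa3* (7926, 8699 and 5402 units), *Xbp1* (4874, 5229.9 and 3159.8) and the bile acid receptor *Nr1h4* (3758, 3958 and 3131) were on top, and *Hnf4a* had 1161, 1324 and 910. *Nr0b2* and *Zbtb20* were undetected and *Zhx2* was detected on 1 array. The detected factors named here were lowest on replicate 3, which was dimmer as a whole in this range.

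Most genes of the metabolic lists were detected, with gaps at single genes. From here to the conjugating enzymes, the detected share ran from 58.1% (sex-biased genes) to 94.7% (cholesterol synthesis), against 42.0% of all genes. As for *Alb* and *Gc*, the part of the probe in the undetected genes of these lists was not tested. In the urea cycle *Cps1*, its first enzyme, had 13069, 12631 and 12929 units, *Ass1* had 10441, 10299 and 13381 and *Arg1*, arginase, had 5394, 5821 and 5229, while both probes of *Otc* and the probe of *Glul*, glutamine synthetase, were undetected. Beta-oxidation and ketone genes were detected for 21 of 25, with 3 in the 100 brightest, and *Cpt1a*, which admits fatty acids to mitochondria, gave 145, 156 and 128 units, under the floor. Acyl-CoA dehydrogenase *Acadm* stood at rank 116 with 17104, 18295 and 14737 units. Also undetected were *Fabp1*, a fatty acid carrier of the hepatocyte (140.4, 139.8 and 130.3 units) and *Hadh*.

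Genes of glucose output were detected for 11 of 14. *Fbp1*, of gluconeogenesis, had 17958, 17159 and 16047 units and *G6pc*, which releases glucose, 8723, 12873 and 8625. *Pck1*, the control step of gluconeogenesis, gave 164, 188 and 154 units and was detected on no array. On replicate 2 *Pck1* lay close to the floor of 189.6. In lipid synthesis 12 of 16 genes were detected, *Fads1*, a desaturase, being brightest with 16156, 18584 and 14678 units, while *Fasn* and *Me1* were undetected and *Scd1* and *Thrsp* were detected on 2 arrays. Cholesterol synthesis was detected for 18 of 19, all but *Idi1*.

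Amino acid breakdown was detected for 15 of 22 genes. *Fah*, the last enzyme of tyrosine breakdown, had 13774, 14185 and 12711 units and *Gldc*, of glycine cleavage, had 8891, 8307 and 8644. *Tat*, *Tdo2* and *Kmo* were detected on no array. Respiratory chain genes were detected for 21 of 28, led by *Atp5b*, and *Ndufb2*, *Sdhd* and *Uqcrq* were undetected on all arrays.

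Genes of cytochrome P450 and of bile acids ranged from very bright to undetected. Of 29 cytochrome P450 genes 21 were detected, 15 of them among the 1000 brightest members. *Cyp3a11* had 19278, 20976 and 18765 units at rank 84, and *Cyp2e1*, the ethanol-oxidising form, had 15865, 20741 and 18277 at rank 94. *Cyp2d26* had 10511, 12335 and 9388 units. *Cyp2c29*, *Cyp2c38*, *Cyp2c39*, *Cyp2j5*, *Cyp3a44*, *Cyp1a1* and *Cyp26a1* were undetected on all arrays. Of 20 genes of bile acid synthesis and transport 13 were detected, with *Cyp8b1*, the sterol hydroxylase of cholic acid synthesis, at 16644, 14483 and 14051 units and *Cyp7a1*, the rate-limiting enzyme, at 2502, 1764 and 1234, while *Slc10a1*, the bile acid importer, and *Baat*, which conjugates bile acids, were undetected.

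Among 31 genes with a male or female bias in adult liver 18 were detected. Both female-biased *Cyp2b9* (9570.2, 9279.6 and 7818 units) and *Cyp2b13* (3561, 3208 and 2902) and male-biased *Cyp2d9* (6313, 5867 and 4666) were detected in these male pups. The major urinary protein genes *Mup1*, *Mup2*, *Mup4* and *Mup5* were detected on no array and *Mup3* on 1, and *Elovl3*, *Slco1a1*, *Fmo2* and *Sult3a1* were undetected as well. Conjugating enzymes were detected for 18 of 28, led by *Mgst1*, a membrane glutathione transferase, with 22055, 24507 and 22078 units, and 8 of them, among them *Gsta1*, *Gsta2*, *Ugt2b5* and *Sult1b1*, were detected on no array. Of the probes undetected on the 3 hSRY-OFF arrays, 94.8% were undetected on all 3 hSRY-ON arrays too, which is 13823 of 14587.

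The control livers differed among themselves by gene group. For this comparison the 3 arrays were background-corrected and quantile-normalized, and for each member probe the array with the highest value was recorded, which was replicate 3 for 33.6% of all members, replicate 2 for 35.4% and replicate 1 for 31.1%. Of the 33 member probes of the red cell list 33 were highest on replicate 3, and 25 were lowest on replicate 2, where 33.7% of all members were lowest. In intensities as deposited, in which replicate 3 was dimmer as a whole, 27 of the 33 were still highest there. The median normalized log2 level of these probes was 9.64, 8.996 and 10.39 on replicates 1, 2 and 3. Megakaryocyte probes were highest on replicate 3 in 9 of 11, amino acid breakdown in 16 of 17 and cholesterol synthesis in 21 of 25. On the intensities as deposited these counts were 4, 5 and 2.

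Lists of sinusoidal cells leaned to replicate 2, while lists of hepatocytes leaned to replicate 2 or to replicate 3. Of 22 endothelial member probes 20 were highest on replicate 2, as were 14 of 21 Kupffer cell probes and 12 of 22 stellate cell probes. Among hepatocyte lists, highest on replicate 2 were 24 of 35 coagulation, 15 of 24 transcription factor and 14 of 22 complement probes. So were 11 of 16 of glucose output, 11 of 17 of bile acids and 16 of 28 of plasma carriers. Urea cycle (11 of 15), cytochrome P450 (14 of 29) and beta-oxidation probes (14 of 33) were most often highest on replicate 3, against 33.6% of all members. On the intensities as deposited these counts were 5, 3 and 0. Amino acid breakdown and cholesterol synthesis, given above, also leaned to replicate 3 after normalization. Lowest on replicate 2 were 28 of 34 cell cycle probes, 18 of 25 of the respiratory chain and 16 of 25 of neutrophils, against 33.7% of all members. Each array is 1 animal, so no test of these differences is possible. Probes of a list share cells and are not independent, and differences in tissue makeup, handling or hybridisation between the animals cannot be told apart.

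**Figure D5:**
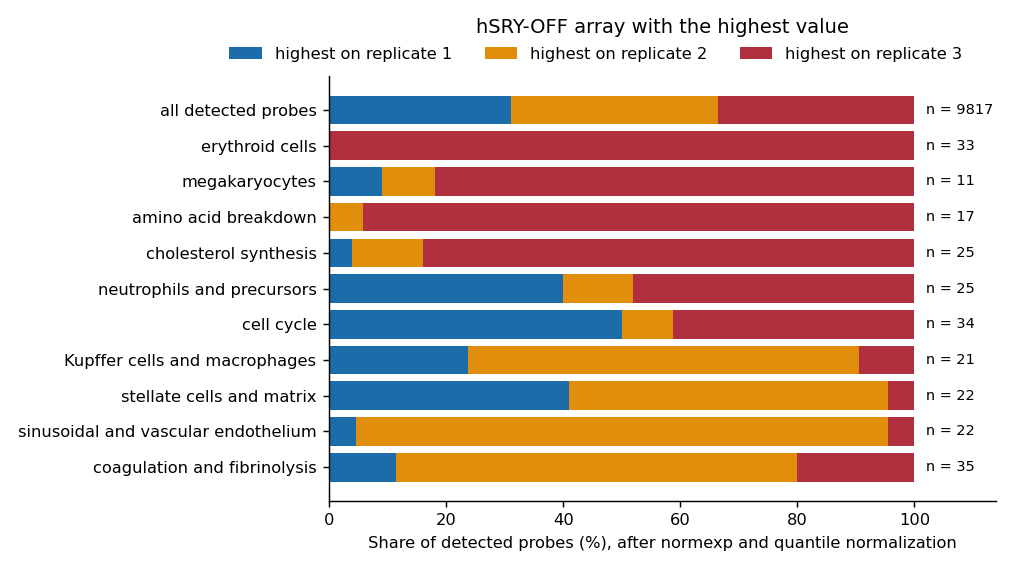
Share (%) of detected probes whose highest normalized value fell on hSRY-OFF replicate 1, 2 or 3, for all 9817 members and for 10 gene lists with the number of probes at the right. The red cell list lay wholly on replicate 3 and the endothelial list on replicate 2 for 20 of 22 probes.

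The members that varied most between the control animals were mostly dim. By the SD of normalized log2 values they were *Cyp4a12a*, a male-biased P450 (417, 241 and 641 units as deposited, SD 1.35 on the log2 scale), *Csprs* (394, 207 and 362), *Abcg4* (342, 247 and 469.8), *Il1b*, an inflammatory cytokine (227, 519 and 245), *Upp2*, a uridine phosphorylase (311, 341 and 584), *Ccl24*, a chemokine for eosinophils (646, 585 and 234), *Gsn*, gelsolin (221, 237 and 336), *Trim80* (237, 226 and 327), *Dmtn*, of the red cell skeleton (1082, 771 and 1642), and *Gfi1b*, a factor of red cells and megakaryocytes (386, 309 and 518). On the normalized scale 8 of the 10 were highest on replicate 3, *Il1b* on replicate 2 and *Ccl24* on replicate 1, whereas in the intensities as deposited *Csprs* was highest on replicate 1. Among the 100 most variable members 76, on the normalized scale, were highest on replicate 3, and 16 were of the red cell and globin lists, which held 36 of all 9817 members.

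How far the order rests on the choice of probe was read from genes with several probes. Of 4949 symbols with more than 1 probe, 1143 had all probes detected on all 3 arrays and 1788 had none, but 1527 (30.9%) had a probe detected on all 3 arrays beside a probe detected on none. Of the 2882 of these symbols that had a member, the 1527 were 53.0%. Where several probes of a symbol were members (1709 symbols), the brightest exceeded the dimmest by a median of 1.88-fold, and in 84 (4.92%) by more than 10-fold. *Kng1* had probes with mean intensities of 39406 and 307 units, at ranks 7 and 6906. The ribosomal protein *Rps24* had 21779 and 218 units, at ranks 66 and 8789, and plasminogen, *Plg*, had 23234 and 509.7 units at its extremes.

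The widest gaps in rank were those of *Aldh8a1*, an enzyme of retinoid and tryptophan metabolism (ranks 592 and 9795), *Cyp2c37* (415 and 9577), *Shc1*, a signalling adaptor (680.0 and 9722), *Dctn2*, of the dynactin complex (661 and 9673), and *Prdx2*, a peroxiredoxin abundant in red cells (98 and 9000). Other genes agreed closely, such as *Hp*, whose 3 probes stood at ranks 8, 13 and 29, *Serpina1b* (2 and 19), *Apoc1* (21 and 31) and *Fga* (12 and 27). Genes with a single probe, such as *Alb*, *Gc* and *Hbb-b1*, offered no such check, and the ranks of the text are those of a gene's brightest probe.

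At the threshold itself the dimmest members were *Pear1* (189, 192 and 167 units), *Syt9* (191, 192 and 164) and *Slc37a1* (189.5, 189.6 and 164). The brightest probes that missed it failed on 1 array each, *LOC100046690* with 253, 186 and 235 units, another probe of *Upp2* with 183, 213 and 259.7 and *Arhgap1* with 233, 248 and 162.

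The hSRY-ON arrays were set against this baseline only to see how much of it was shared. On all 3 of them 93.8% of the members (9206) were detected and 174 were detected on none, and 75 of the 100 brightest probes were the same. In the limma fit across 10734 probes, 33.1% of all probes passed an adjusted p of 0.05, with 15.8% higher and 17.3% lower in hSRY-ON livers. Without hSRY-OFF replicate 1 the number of probes that passed went from 3554 to 1821, and without hSRY-OFF replicate 2 to 1959. Of the 100 brightest members 29 passed, 2 higher and 27 lower, and with no background correction 46 passed, 14 higher and 32 lower. Quantile normalization gives the very brightest probes nearly the same value on each array, so the fit says nothing about differences in *Hba-a1* and the probes next to it. A member chosen for brightness in hSRY-OFF livers is more likely to appear lower in the other group. When the 100 brightest probes were chosen on the hSRY-ON arrays, 25 passed, 16 higher and 9 lower. The part of the choice in these counts was not tested.

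The top tier was chosen on hSRY-OFF values that also enter the limma fit, and the adjusted p-values below do not allow for that choice. The member of the tier with the largest difference was *Cyp2e1*, with 15865, 20741 and 18277 units in hSRY-OFF livers. Its mean in hSRY-ON livers was 2614 (log2 difference -2.84 ± 0.31 SE, limma adjusted p = 0.00089). Next were *Cyp3a11* with -1.60 ± 0.30 (limma adjusted p = 0.0074), the dimmer of the *Serpinf2* probes in this tier with -1.58 ± 0.21 (limma adjusted p = 0.0020) and *Hsd3b7*, of bile acid synthesis, with -1.46 ± 0.16 (limma adjusted p = 0.00098). The 2 probes that were higher in hSRY-ON livers were those of *LOC100042427* (0.69 ± 0.13, limma adjusted p = 0.0066) and *Rps19* (0.40 ± 0.11, limma adjusted p = 0.032), named after their values were seen.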

How the data were processed

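The authors labelled total liver RNA as biotinylated cRNA and hybridised it to Illumina MouseRef-8 bead arrays. The deposited table held, per array, a mean bead intensity on a linear scale, not normalized (lowest value 108), and a detection p-value per probe. The deposited p-values were used only to call detection. The scanner software and its settings are not given in the sources used here. The study names TCC, a package for counts, for its normalization and group comparison, and the labels name limma with no version. TCC was not used here, since the table holds intensities. Of 18138 symbols, 14307 were current in RefSeq (GRCm38.p6), 2927 matched through an older name and 904 kept the table's name. No column was left without a sample (0).

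Members were ranked on intensities as deposited. The negative control level was taken as the mean intensity of probes with a detection p between 0.45 and 0.55. For comparisons of arrays, limma 3.58.1 in R 4.3.3 was used (nec with offset 16, quantile normalization, log2), over the 3 hSRY-OFF arrays or over all 6. Groups were compared with lmFit and eBayes on probes detected at 0.01 on 3 or more of the 6 arrays, with Benjamini-Hochberg adjustment, and the procedure was tested on simulated data. The number of arrays limits the precision. Tables were handled in Python 3.11.15 with pandas 2.3.3.

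Members and the 36 gene lists (704 genes) were chosen with earlier results of these data known. Named were the 30 brightest genes, up to 6 bright genes and undetected genes of each list, cell type markers, the 10 most variable members, the 5 widest probe gaps and 3 probes on each side of the threshold. A gene counts as detected if any of its probes is a member. Motifs were searched on both strands in the 250 bases before the start, and TATAA on the gene's strand within 60. Protein sequences were not used here. Alternatives were other detection thresholds, normalizations and left-out arrays. A few genes of the lists are not reported here.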

Additional observations from a re-analysis of the deposited data

How the results depend on the processing

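The count of members kept within 1.5 times its value under every alternative run, from 7264 (detection p under 0.001) to 10987 (under 0.05), and 452 listed genes detected became 412 and 486. Over 36 lists and 6 settings, 213 of 216 counts stayed within 1.5 times, and the exceptions are given above. The 100 brightest kept 86 to 100 probes. Their share of brightness was 22.02% with 1 probe per gene and 19.1% to 20.2% with 1 hSRY-OFF array left out. The counts of probes highest on hSRY-OFF replicate 3 in intensities as deposited were an alternative chosen after seeing the data. TATAA was found in 9.38% of promoters for the 50 and 16.1% for the 200 brightest members.

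Group calls moved more. Of the 100 brightest members 46 passed with no background correction (14 higher, 32 lower) and 19 at an adjusted p under 0.01, and 20 to 30 passed with 1 array left out. Over all tested probes 1665 passed under 0.01, and 1821 to 3947 with 1 array left out. The lowest counts were 1821 without hSRY-OFF replicate 1 and 1959 without hSRY-OFF replicate 2. The cause was not tested. Median scaling gave 1204 higher and 1768 lower, against 1700 and 1854.

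Replicate numbers are shared between groups, but deviations of same-numbered arrays correlated at 0.02, 0.05 and 0.10, so the numbers were not taken as pairs. With the replicate number as a block 3210 probes passed, 24 of them among the 100 brightest. Features of protein starts were not run. Probes near the floor of 164 to 189.6 units give bounds only, and with 3 arrays no outlying array can be tested.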
